A study of Mus musculus with 11 samples.

Results

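The enzymes described here are 40 genes that build fatty acids and sphingolipids, measured by RNA sequencing of mouse lumbar spinal cord. They were taken by symbol from the 20888 genes of the deposited expression table, from a list of enzymes of these pathways. The list follows function, but it was drawn up with earlier results of these data known. All 40 were found and all 40 passed the filter on low values, which 14347 genes passed in all. The mice were C57BL/6, aged 10 months, and fell into 3 genotype groups. There were 3 nontransgenic control mice (nTg), 3 mice carrying mutant mitofusin 2 (MFN2-R94Q) and 5 mice carrying the same mutant together with mitofusin 1 (MFN2-R94Q:MFN1). Mitofusins fuse the outer membranes of mitochondria, and the study's title places the mice as a model of CMT2A, an inherited neuropathy of peripheral axons. The sources used here do not give the promoter, the cell types or the species of the transgenes. The mouse genes Mfn1 (24.2 to 26.6 RPKM over the 11 libraries) and Mfn2 (43.3 to 47.7 RPKM) therefore do not check the labels.

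Fatty acid synthesis starts in the cytosol, where citrate is split to acetyl-CoA, acetyl-CoA is carboxylated to malonyl-CoA, and fatty acid synthase builds palmitate from both. In the endoplasmic reticulum, elongases lengthen the chain in a 4-enzyme cycle and desaturases place double bonds in it. Sphingolipid synthesis begins when serine palmitoyltransferase joins serine to palmitoyl-CoA, and ceramide synthases then add a second acyl chain. Ceramide is the branch point to sphingomyelin, to glucosylceramide and the gangliosides of neurons, and to galactosylceramide and sulfatide, lipids that are abundant in myelin. Many of the fatty acid genes are known targets of the SREBP transcription factors, which often act together with the CCAAT-binding factor NF-Y.

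Values are RPKM, reads per kilobase of gene scaled to the reads of the library, as the authors deposited them, with 1 column per mouse. The sequencing depth recovered from the steps between low values was 30.7 to 72.0 M reads per library. In a principal component analysis over all genes tested, MFN2-R94Q replicate 2 lay far from the rest, at 27.0 on the leading component (39.6% of the variance), with the other MFN2-R94Q mice at 6.20 and 8.05 and the remaining 8 mice between -8.23 and -2.48. Of the 40 enzymes, 21 had their lowest MFN2-R94Q value in that library, so the counts of enzymes past the threshold are also given without it. In MFN2-R94Q:MFN1 replicate 3, Prx, a Schwann cell gene, was at 1.15 RPKM, against at most 0.166 RPKM in each of the other libraries. Igf2, from the meningeal marker list, was at 4.46 RPKM in that library, against at most 1.79 RPKM elsewhere. The mean log2 difference from the nTg mean was 1.095 over its Schwann cell markers and 0.52 over its meningeal markers. In the other libraries these means were at most 0.13 and 0.11. Spinal cord markers were present in every library: the 12 oligodendrocyte markers summed to 3822 RPKM or more, the 10 neuron markers to 2680 RPKM or more and the 8 astrocyte markers to 1268 RPKM or more. The 6 adipocyte markers found in the table summed to at most 0.238 RPKM, so fat tissue, which expresses many of these enzymes, left almost no marker signal.

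The promoters of 6 enzymes are shown because these genes carry the differences described below and because the recurring motif in the enzymes' promoters, CCAAT, can be seen in some and not in others. Each window holds the 250 bases before the RefSeq start on GRCm38.p6, 5′ to 3′ on the strand of the gene, with CCAAT or its reverse complement ATTGG in capitals. Fasn lies at chr11:120824548-120824797, minus strand. The windows of Elovl5 and Hsd17b12 lie at chr9:77917115-77917364, plus strand, and at chr2:94157910-94158159, minus strand. Those of Tecr and Elovl6 lie at chr8:83594492-83594741, minus strand, and at chr3:129532136-129532385, plus strand, and that of Fads2 lies at chr19:10101504-10101753, minus strand.
Fasn: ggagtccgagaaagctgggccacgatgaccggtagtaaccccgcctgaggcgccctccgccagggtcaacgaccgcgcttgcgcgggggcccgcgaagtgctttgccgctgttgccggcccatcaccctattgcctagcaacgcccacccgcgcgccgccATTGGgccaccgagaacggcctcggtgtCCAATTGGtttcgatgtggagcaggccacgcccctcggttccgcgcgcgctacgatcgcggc
Elovl5: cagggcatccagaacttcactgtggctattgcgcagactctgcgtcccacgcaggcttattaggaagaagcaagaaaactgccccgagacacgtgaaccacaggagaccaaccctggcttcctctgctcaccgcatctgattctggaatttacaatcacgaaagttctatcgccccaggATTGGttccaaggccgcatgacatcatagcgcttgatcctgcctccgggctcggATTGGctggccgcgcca
Hsd17b12: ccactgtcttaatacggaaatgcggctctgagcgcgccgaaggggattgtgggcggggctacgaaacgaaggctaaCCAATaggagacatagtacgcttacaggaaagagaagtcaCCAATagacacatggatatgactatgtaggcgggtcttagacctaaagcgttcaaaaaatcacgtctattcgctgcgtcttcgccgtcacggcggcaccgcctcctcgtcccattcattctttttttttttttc
Tecr: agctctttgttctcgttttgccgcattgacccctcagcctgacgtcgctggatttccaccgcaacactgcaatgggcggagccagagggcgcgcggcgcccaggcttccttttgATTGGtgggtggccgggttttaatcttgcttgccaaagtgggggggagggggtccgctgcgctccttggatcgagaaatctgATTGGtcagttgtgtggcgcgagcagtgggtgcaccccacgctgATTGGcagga
Elovl6: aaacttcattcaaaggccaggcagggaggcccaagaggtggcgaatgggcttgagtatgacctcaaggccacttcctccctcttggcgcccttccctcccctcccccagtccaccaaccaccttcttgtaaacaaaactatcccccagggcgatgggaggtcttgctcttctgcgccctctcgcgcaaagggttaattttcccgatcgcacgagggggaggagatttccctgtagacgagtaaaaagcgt
Fads2: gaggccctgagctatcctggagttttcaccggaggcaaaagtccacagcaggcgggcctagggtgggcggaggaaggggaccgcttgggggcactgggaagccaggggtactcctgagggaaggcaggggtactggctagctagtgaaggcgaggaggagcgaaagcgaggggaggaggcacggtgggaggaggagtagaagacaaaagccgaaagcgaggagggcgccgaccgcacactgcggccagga

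Exact matches on both strands were counted for 5 motifs in the windows of all genes, and 35 of the 40 enzymes had a window. A gene was counted if any of its windows matched. The 35 enzymes had 49 windows and all 27025 genes had 32851, so shares by gene are also given by window. CCAAT was in a window of 20 of the 35 enzymes (57.1%), against 37.5% of all 27025 genes with a window. By window, CCAAT was in 22 of 49, against 33.85% of all windows. It stands 90, 62 and 59 bases before the Fasn start, the last pair overlapping on opposite strands, 71 and 17 bases before that of Elovl5, 174 and 134 before that of Hsd17b12, and 136, 54 and 10 before that of Tecr. The Elovl6 and Fads2 windows hold none. Of the 8 enzymes that were lower in MFN2-R94Q (below) and have a window, 6 held CCAAT (Fasn, Elovl1, Elovl5, Hsd17b12, Tecr and St3gal5), as did 14 of the 27 others. The E-box CACGTG was in 5 of 35 enzymes (14.3%, all genes 6.86%), among them Elovl5, 161 bases before its start, and the nuclear receptor motif AGGTCA in 9 (25.7%, all genes 15.8%). The full sterol response element, searched in its classical form, was in 0 of 35 (all genes 0.08%), and the shorter CACCCCAC, which that element contains, was in 4 (11.4%, all genes 2.98%), including Tecr. By window, CACGTG was in 5 of 49 (all windows 6.02%), AGGTCA in 11 (all windows 14.02%) and CACCCCAC in 4 (all windows 2.58%). All of these are matches of letters in a short window and not measured binding. Fads1, Scd1, Scd2, B4galt6 and B4galnt1 had no window.

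Levels of the enzymes, which RPKM allows to be compared between genes per unit of length, ranged from 607 RPKM for Scd2 to 1.49 RPKM for Sgms2 (means over all 11 mice). Scd2, a stearoyl-CoA desaturase, was above 99.8% of the genes tested, and Tecr, the reductase that ends each round of elongation, stood at 372 RPKM, above 99.6%. Scd1 followed at 133 RPKM and Acly at 103.5 RPKM. The enzymes with the lowest levels were Kdsr, Cers6, Acacb, Degs2 and Sgms2, at 5.01 RPKM or less. Within role groups the range was wide: elongases ran from Elovl2 at 6.31 RPKM to Elovl5 at 46.6 RPKM, and ceramide synthases from Cers6 at 3.10 RPKM to Cers2, the very-long-chain ceramide synthase of myelinating cells, at 52.6 RPKM. Some values carry an annotation limit: 42.5% of the exon bases of Cers1 are shared with Gdf1 on the same strand, 20.7% of those of B4galnt1 with Slc26a10 and 10.8% of those of Degs2 with Evl, both on the opposite strand. The sources used here do not say whether the counting used the strand.

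**Figure D1:**
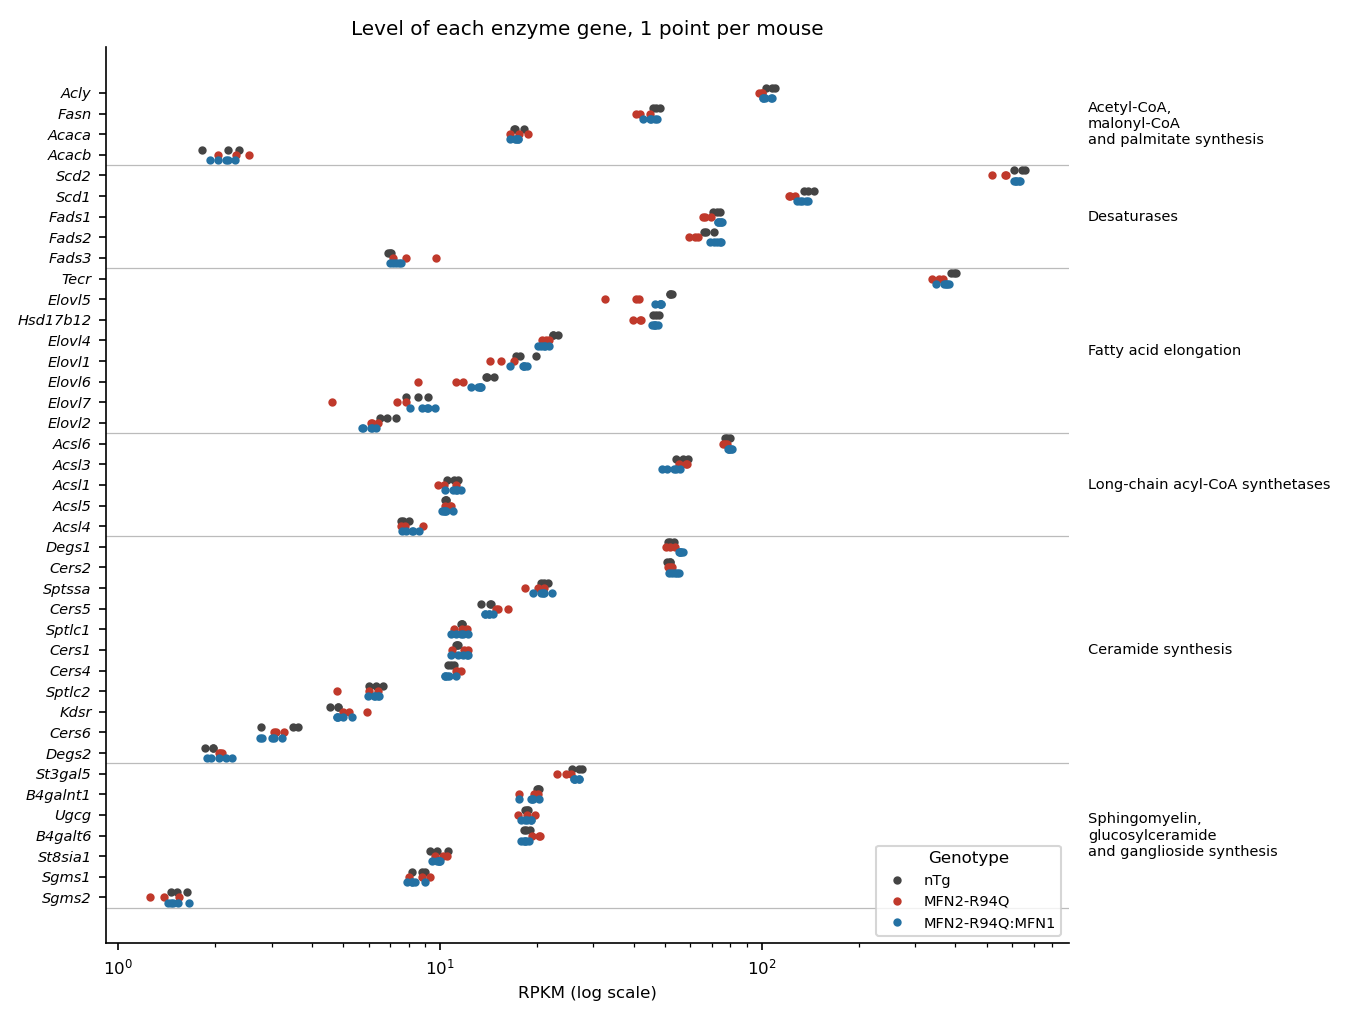
RPKM (log axis) of each of the 40 enzyme genes in each of the 11 mice, 1 point per mouse, with the genotype groups in 3 colours and offset vertically within a gene; rows are grouped by role and ordered by mean level. The levels run from 1.49 RPKM for Sgms2 to 607 RPKM for Scd2, and the spread between genotypes is small against the spread between genes.

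The first comparison, MFN2-R94Q against nTg, asks what the mutant mitofusin changed. Of the 40 enzymes, 11 were lower in MFN2-R94Q and 0 were higher, by limma at an adjusted p of 0.05. Of all genes tested, 10.4% were called lower and 7.5% higher in this comparison. At an unadjusted p of 0.05, 15 enzymes were lower and 4 higher. The share of all genes at that unadjusted threshold was not counted, so these counts cannot be set against it. The 11 were Fasn, the desaturases Scd1, Scd2, Fads1 and Fads2, the elongation genes Elovl1, Elovl5, Elovl6, Hsd17b12 and Tecr, and the ganglioside enzyme St3gal5. All mutant mice lay below all controls for 14 enzymes and above them for 6, against 19.1% and 16.6% of all genes (35.7% in either direction). By pathway, 10 of the 22 fatty acid genes fell (median log2 fold change -0.12) and 1 of the 18 sphingolipid genes (median 0.003), against a median of -0.002 over all genes tested. The changes were small: the largest was Elovl5, to 0.731 of the nTg level, and 9 of the 11 were to 0.85 of it or more. Without MFN2-R94Q replicate 2, 6 of the 11 remained lower, namely Scd1, Scd2, Elovl5, Elovl6, Hsd17b12 and Tecr, and none of the 40 was higher; over all genes 1000 of 14347 were then lower, against 1485 with every library. The 3 groups shared 1 estimate of the spread; with nTg and MFN2-R94Q alone, 3 of the 11 passed, Scd1, Elovl5 and Hsd17b12 (582 of all genes lower). Under quantile normalization 5 of the 11 passed and 2 enzymes, Cers5 and B4galt6, were higher.

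The second comparison, MFN2-R94Q:MFN1 against MFN2-R94Q, asks what changed when MFN1 was added. Here 10 enzymes were higher and 1 was lower, against 9.55% and 3.33% of all genes tested. At an unadjusted p of 0.05, for which the share of all genes was not counted, 12 of the 40 were higher and 4 lower. The 10 were Scd1, Scd2, Fads1, Fads2, Elovl1, Elovl5, Elovl6, Elovl7, Hsd17b12 and Degs1, and the lower gene was B4galt6. The groups did not overlap for 12 higher and 2 lower enzymes, against 13.1% and 7.05% of all genes (20.1% in either direction). Of the 22 fatty acid genes 9 rose (median log2 fold change 0.08), and of the 18 sphingolipid genes 1 rose and 1 fell (median -0.004; all genes 0.012). Without MFN2-R94Q replicate 2, 5 of the 10 remained higher, Fads1, Fads2, Elovl5, Elovl6 and Hsd17b12, and 0 were lower (725 and 155 of all genes, against 1370 and 478). Without MFN2-R94Q:MFN1 replicate 3, the library with the high Prx level, 7 of the 10 remained higher. Over all genes, 74.1% of the calls in this comparison were higher, but 54.7% under quantile normalization, 61.0% under median ratio scaling and 54.6% after correcting for the length and GC content of transcripts. Under the first pair of these scalings 7 of the 10 enzymes stayed higher and 3 were lower, B4galt6, Acsl3 and Cers5. Both comparisons use the same MFN2-R94Q mice, so a value that is low in those mice enters both, and the opposite signs are not 2 separate observations.

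The third comparison, MFN2-R94Q:MFN1 against nTg, asks how mice with both transgenes differ from controls. By limma, 0 of the 40 enzymes passed the threshold (all genes 2.31%, of which 2.09% higher and 0.223% lower). At an unadjusted p of 0.05, for which the share of all genes was not counted, 2 were higher and 4 lower. The smallest adjusted p was 0.080, for Elovl2. Without MFN2-R94Q replicate 2, which enters this comparison only through the shared estimate of the spread, Degs1 was higher and Elovl5 lower (479 and 111 of all genes, against 300 and 32). All mice with both transgenes lay above all controls for 1 enzyme, Degs1 (all genes 9.03%), and below them for 5 (all genes 5.05%; 14.1% in either direction). The fitted log2 differences ran from -0.18 to 0.10 with a median of -0.014 (all genes 0.008), and the 95% intervals of the 40 genes reached from -0.28 to 0.34. A p above the threshold does not show that the groups were alike.

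**Figure D2:**
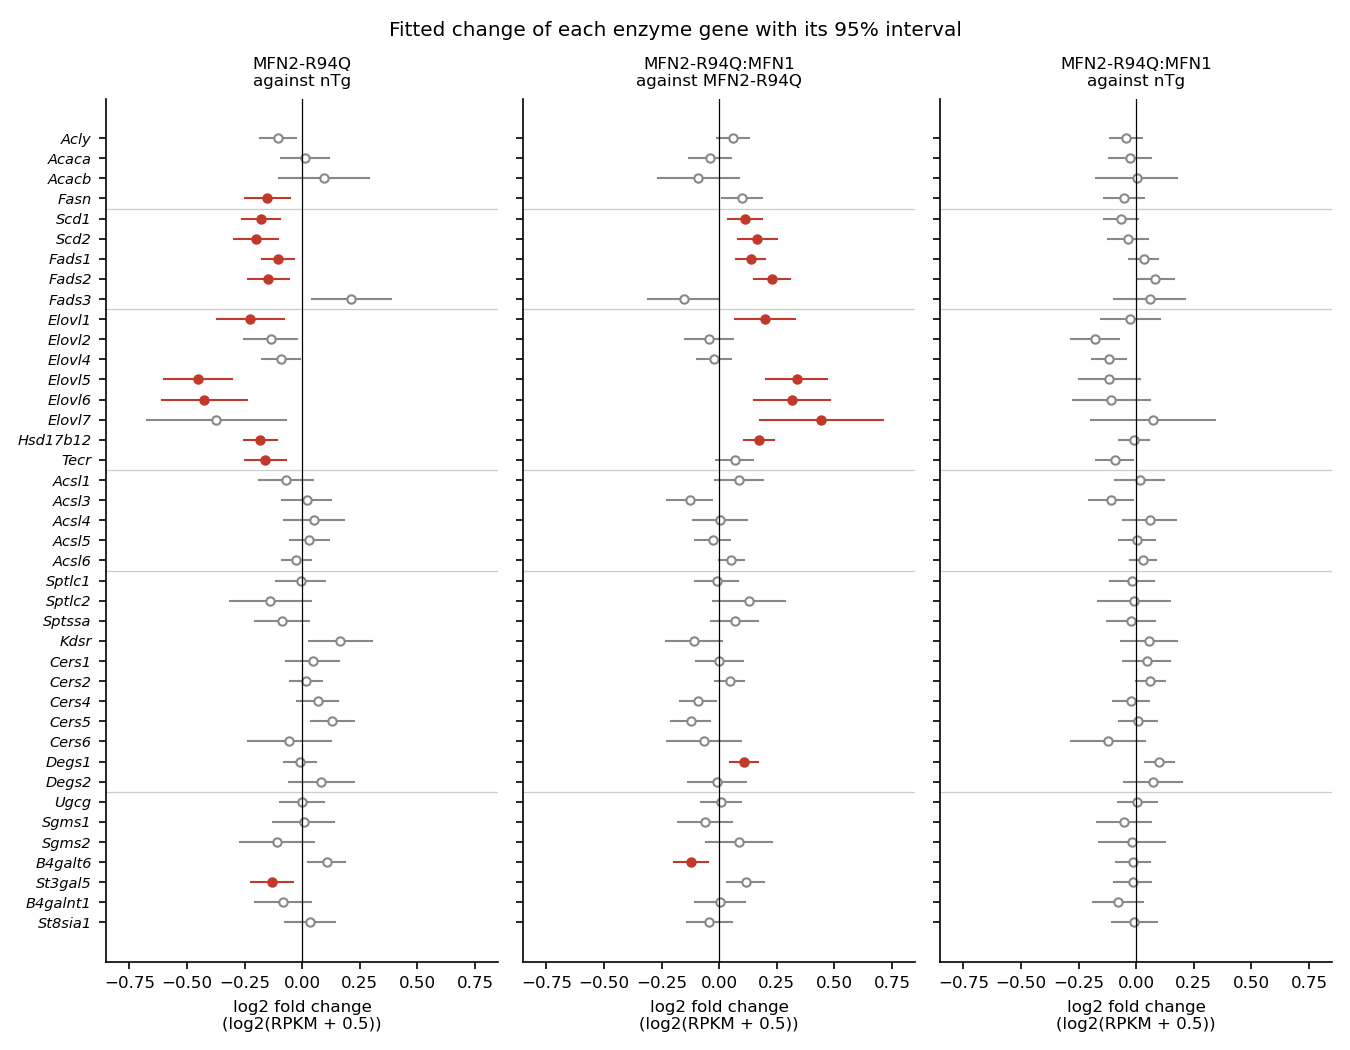
Fitted log2 fold change (on the scale log2(RPKM + 0.5)) of each enzyme with its 95% interval in the 3 comparisons, with genes past the limma threshold filled in red and the others open in grey. The 11 genes lower in MFN2-R94Q against nTg lie between -0.45 and -0.10, the 10 higher in MFN2-R94Q:MFN1 against MFN2-R94Q between 0.11 and 0.44, and no gene is filled in MFN2-R94Q:MFN1 against nTg.

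Of the 4 genes that make palmitate, 1 passed in 1 comparison. Fasn (chromosome 11, 120805846 to 120824547, GRCm38), fatty acid synthase, was at 47.0, 45.9 and 48.4 RPKM in nTg, at 40.6, 41.8 and 44.9 RPKM in MFN2-R94Q, and at 45.1, 46.7, 42.9, 45.2 and 47.2 RPKM in MFN2-R94Q:MFN1. All 3 mutant mice lay below all 3 controls, while the MFN2-R94Q:MFN1 mice overlapped both groups. Fasn fell to 0.901 of the nTg level (log2 -0.15, SE 0.04, adjusted p = 0.035 by limma); without MFN2-R94Q replicate 2 the adjusted p was 0.081 at a log2 change of -0.14. The call was lost in 5 of 10 alternative settings and in 5 of 11 runs with a library left out. Acly, ATP citrate lyase, which supplies cytosolic acetyl-CoA, was at 108, 109.7 and 103 RPKM in nTg, at 100.4, 97.8 and 100.5 RPKM in MFN2-R94Q, and at 103, 108, 101, 101 and 107 RPKM in MFN2-R94Q:MFN1. The nTg and MFN2-R94Q groups of Acly did not overlap, but the difference missed the threshold (log2 -0.10, adjusted p = 0.065), as did that between MFN2-R94Q:MFN1 and MFN2-R94Q (log2 0.06, adjusted p = 0.24). Acaca and Acacb, the acetyl-CoA carboxylases, differed by at most 0.09 on the log2 scale in every comparison, and their groups overlapped in each. Acaca ranged from 16.5 to 18.8 RPKM and Acacb from 1.82 to 2.56 RPKM over the 11 mice.

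Among the 5 desaturases 4 fell in MFN2-R94Q and the same 4 rose in MFN2-R94Q:MFN1 against MFN2-R94Q. Scd2 (chromosome 19, 44293674 to 44306864), which makes oleate and palmitoleate and is the main form in brain, was at 607, 658 and 646 RPKM in nTg and at 569, 518 and 576 RPKM in MFN2-R94Q. In MFN2-R94Q:MFN1 it was at 608, 631, 617, 634 and 616 RPKM. The mutant mice lay below all other mice. Scd2 fell to 0.870 of the nTg level (log2 -0.20, SE 0.04, adjusted p = 0.010) and rose 1.12-fold with MFN1 (log2 0.17, SE 0.04, adjusted p = 0.019); the rise missed the threshold without MFN2-R94Q replicate 2 (adjusted p = 0.077).

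Its neighbour Scd1 (chromosome 19, 44394455 to 44407879), with the same reaction, was at 139.7, 136 and 145 RPKM in nTg, at 123, 122 and 127 RPKM in MFN2-R94Q, and at 129, 131, 134, 139 and 137 RPKM in MFN2-R94Q:MFN1. Again the mutant mice were the lowest, and the other groups overlapped. Scd1 fell to 0.883 (log2 -0.18, adjusted p = 0.0093), a call that held under all 21 alternatives, and rose 1.08-fold with MFN1 (log2 0.11, adjusted p = 0.048), a call that was lost in 16 of them. The transcripts of Scd1 and Scd2 share 3.03% and 2.68% of their windows of 50 bases as exact matches. Because Scd2 stood at 607 RPKM and Scd1 at 133 RPKM (means over all mice), reads from shared stretches could weigh more on Scd1. How many reads were shared was not tested, and the rule for multimapping reads is not given.

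Fads1 and Fads2 make polyunsaturated fatty acids, as the delta-5 and delta-6 desaturases. Fads1 (chromosome 19, 10182888 to 10196877) was at 74.1, 70.6 and 72.8 RPKM in nTg, at 66.7, 65.9 and 69.7 RPKM in MFN2-R94Q, and at 73.4, 74.2, 73.1, 74.9 and 75.5 RPKM in MFN2-R94Q:MFN1. Fads2 (chromosome 19, 10062765 to 10101746) was at 71.2, 66.3 and 67.2 RPKM in nTg, at 62.2, 59.3 and 63.3 RPKM in MFN2-R94Q, and at 71.3, 72.6, 69.0, 74.5 and 74.3 RPKM in MFN2-R94Q:MFN1. For both genes the mutant mice lay below every mouse of the other groups. Against MFN2-R94Q, Fads2 rose 1.17-fold in MFN2-R94Q:MFN1 (log2 0.23, SE 0.04, adjusted p = 0.0030) and Fads1 1.10-fold (log2 0.14, SE 0.03, adjusted p = 0.011), and both calls held under all 21 alternatives. Their falls in MFN2-R94Q were to 0.904 for Fads2 (adjusted p = 0.027) and 0.930 for Fads1 (adjusted p = 0.042), and neither passed without MFN2-R94Q replicate 2 (adjusted p = 0.080 and 0.11). Among the alternatives, the fall of Fads1 was lost in 4 of 10 settings and in 9 of 11 runs with a library left out. That of Fads2 was lost in 3 of 10 and 3 of 11. The third gene of the cluster, Fads3, was at 6.91 to 7.05 RPKM in nTg, 7.15 to 9.70 RPKM in MFN2-R94Q and 7.00 to 7.57 RPKM in MFN2-R94Q:MFN1. It had the sign opposite to its neighbours in MFN2-R94Q (log2 0.21) without passing (adjusted p = 0.081), and its value of 9.70 RPKM was in replicate 2.

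Elongation showed the largest changes. Of its 8 genes, 5 fell in MFN2-R94Q (median log2 fold change -0.20 over the 8, all negative) and 5 rose in MFN2-R94Q:MFN1 against MFN2-R94Q (median 0.19). Elovl5 (chromosome 9, 77917364 to 77984519), an elongase of polyunsaturated fatty acids, was at 52.1, 52.7 and 52.0 RPKM in nTg. It was at 40.6, 32.6 and 41.7 RPKM in MFN2-R94Q and at 46.8, 48.3, 48.6, 48.8 and 48.5 RPKM in MFN2-R94Q:MFN1. The 3 groups did not overlap: all mutant mice were lowest, all control mice highest, and the mice with both transgenes lay between. Elovl5 fell to 0.731 of the nTg level (log2 -0.45, SE 0.07, adjusted p = 0.0030) and rose 1.26-fold with MFN1 (log2 0.34, SE 0.06, adjusted p = 0.0060), and both calls held under all 21 alternatives. The lowest value was in replicate 2; without it the changes were -0.34 (adjusted p = 0.00013) and 0.22 (adjusted p = 0.00095) on the log2 scale. The remaining difference between MFN2-R94Q:MFN1 and nTg, to 0.922 (log2 -0.12, 95% interval -0.25 to 0.02), missed the threshold with all libraries (adjusted p = 0.39). It passed without MFN2-R94Q replicate 2, whose spread then left the fit (adjusted p = 0.020), and with the 2 groups fitted alone (adjusted p = 0.025).

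Elovl6 (chromosome 3, 129532355 to 129638495) extends palmitate to stearate. It was at 14.7, 13.9 and 14.0 RPKM in nTg, at 11.2, 8.57 and 11.8 RPKM in MFN2-R94Q, and at 13.2, 13.4, 12.5, 13.3 and 13.3 RPKM in MFN2-R94Q:MFN1, again 3 groups without overlap. It fell to 0.745 of the nTg level (log2 -0.42, SE 0.09, adjusted p = 0.0074) and rose 1.25-fold with MFN1 (log2 0.32, SE 0.08, adjusted p = 0.020). Without replicate 2 of MFN2-R94Q these were -0.29 (adjusted p = 0.0024) and 0.18 (adjusted p = 0.021), so the size depended on that library and the calls did not. Against nTg, Elovl6 in MFN2-R94Q:MFN1 was at 0.928 (log2 -0.11, adjusted p = 0.55).

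Elovl1 and Elovl7 extend saturated and monounsaturated chains, Elovl1 to the very long lengths found in sphingolipids. Elovl1 (chromosome 4, 118428093 to 118432953) was at 17.8, 19.9 and 17.2 RPKM in nTg, at 15.4, 14.3 and 17.0 RPKM in MFN2-R94Q, and at 16.5, 18.2, 18.1, 18.6 and 18.3 RPKM in MFN2-R94Q:MFN1. Its MFN2-R94Q:MFN1 mice overlapped the mutant mice through replicate 1. It fell to 0.856 (log2 -0.22, adjusted p = 0.035) and rose 1.15-fold with MFN1 (log2 0.20, adjusted p = 0.045); neither passed without MFN2-R94Q replicate 2 (adjusted p = 0.11 and 0.18). The fall was lost in 6 of 10 alternative settings and in 4 of 11 runs with a library left out. The rise was lost in 7 of 10 and 7 of 11. Elovl7 (chromosome 13, 108214404 to 108285683) was at 7.82, 8.52 and 9.17 RPKM in nTg, at 7.85, 4.62 and 7.34 RPKM in MFN2-R94Q, and at 8.06, 9.13, 9.66, 9.17 and 8.81 RPKM in MFN2-R94Q:MFN1. The single low value of 4.62 RPKM was in replicate 2, and another MFN2-R94Q mouse overlapped the controls. The rise of Elovl7 with MFN1 was 1.36-fold (log2 0.44, SE 0.12, adjusted p = 0.035) with replicate 2 and 0.22 on the log2 scale without it (adjusted p = 0.070). That call was lost in 3 of 10 alternative settings and in 5 of 11 runs with a library left out. In MFN2-R94Q against nTg the log2 difference of Elovl7 was -0.37 and missed the threshold (adjusted p = 0.080). It passed without MFN2-R94Q replicate 1 (-0.50, adjusted p = 0.024).

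Elovl2 and Elovl4, elongases of the longest polyunsaturated chains, did not pass in any comparison but had their groups apart in 2. Elovl2 was at 6.51 to 7.31 RPKM in nTg, 6.09 to 6.43 RPKM in MFN2-R94Q and 5.73 to 6.34 RPKM in MFN2-R94Q:MFN1. Elovl4 was at 22.4 to 23.3, 20.7 to 21.8 and 20.2 to 21.8 RPKM. In both, all control mice lay above all other mice, and the mutant mice and the mice with both transgenes overlapped. In MFN2-R94Q:MFN1 against nTg the log2 differences were -0.18 for Elovl2 (adjusted p = 0.080) and -0.12 for Elovl4 (adjusted p = 0.11). Once corrected for length and GC content of the transcripts they were -0.21 (adjusted p = 0.032) and -0.15 (adjusted p = 0.031).

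Hsd17b12 and Tecr, which reduce the chain in the second and the last step of each elongation round, serve all the elongases. Hsd17b12 (chromosome 2, 94032689 to 94157964) was at 47.9, 46.9 and 45.9 RPKM in nTg, at 42.2, 39.8 and 41.9 RPKM in MFN2-R94Q, and at 45.6, 46.3, 47.7, 46.7 and 46.6 RPKM in MFN2-R94Q:MFN1. The mutant mice lay below all others, and the remaining groups overlapped. It fell to 0.882 (log2 -0.18, SE 0.03, adjusted p = 0.0050) and rose 1.13-fold with MFN1 (log2 0.17, SE 0.03, adjusted p = 0.0049), both under all 21 alternatives. Tecr (chromosome 8, 83571698 to 83607971) was at 386, 401 and 397 RPKM in nTg, at 339, 367 and 355 RPKM in MFN2-R94Q, and at 348, 383, 369, 377 and 374 RPKM in MFN2-R94Q:MFN1. Here the MFN2-R94Q:MFN1 mice overlapped the mutant mice and all lay below the controls. Tecr fell to 0.895 in MFN2-R94Q (log2 -0.16, SE 0.04, adjusted p = 0.020), while its other differences missed the threshold (log2 0.07 against MFN2-R94Q, adjusted p = 0.24, and -0.09 against nTg, adjusted p = 0.24). Counting Tecr, 5 of the 8 elongation genes had all MFN2-R94Q:MFN1 mice below all nTg mice, against 5.05% of all genes tested. They were Elovl2, Elovl4, Elovl5, Elovl6 and Tecr, and no enzyme of another role showed this. None of the 5 passed the limma threshold in this comparison with all libraries (adjusted p = 0.080 to 0.55).

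**Figure D3:**
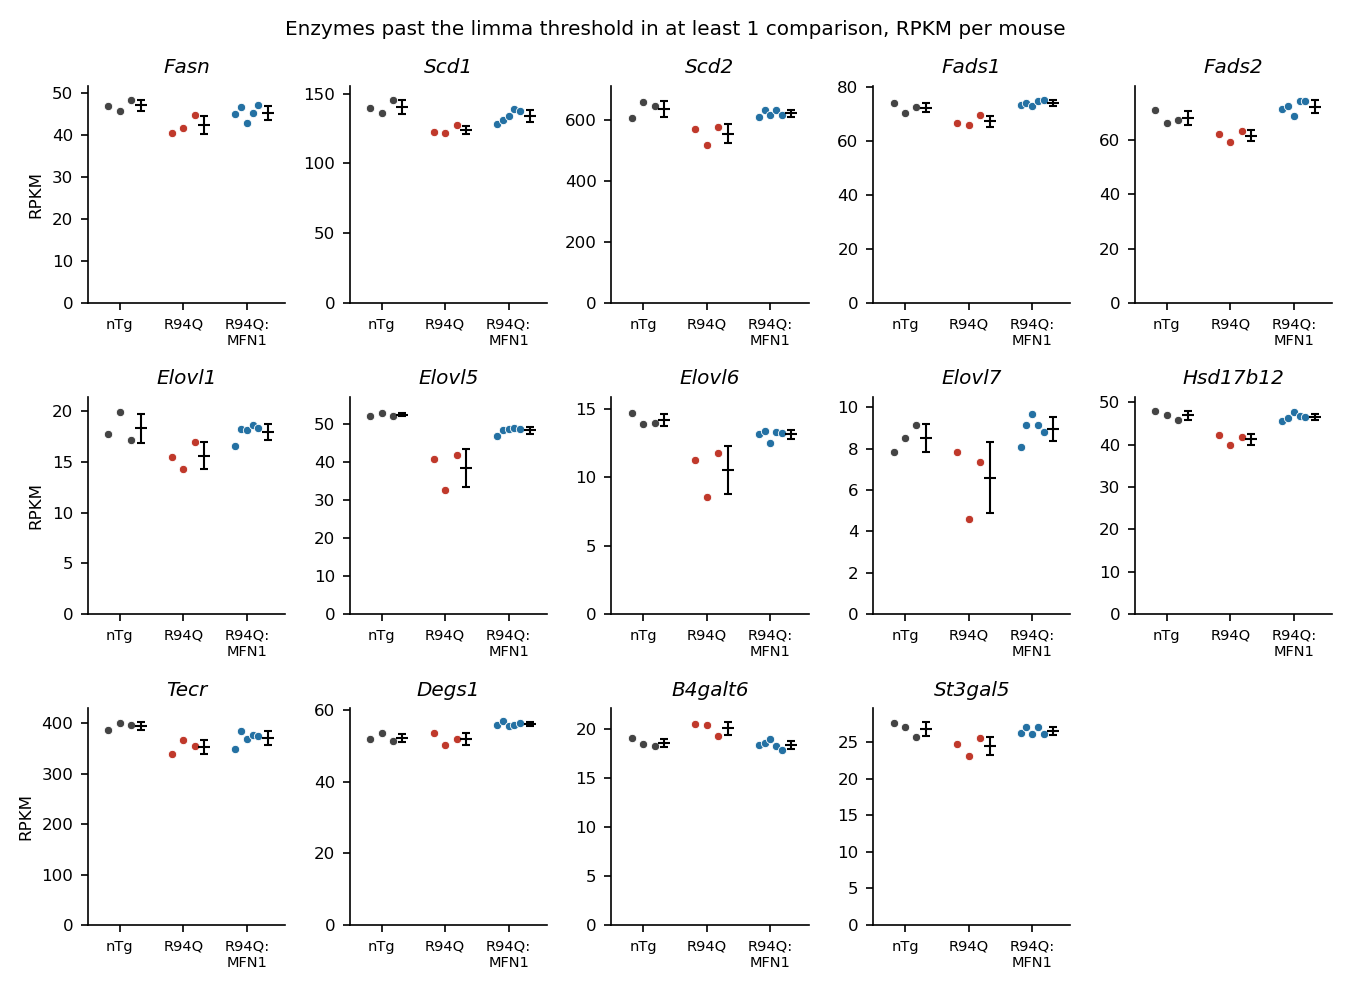
RPKM (linear axes from 0) of the 14 enzymes past the limma threshold in at least 1 comparison, 1 point per mouse, with the group mean and SD as the bar at the right of each group (n = 3, 3 and 5); R94Q stands for MFN2-R94Q. In Elovl5 and Elovl6 the 3 groups do not overlap, and the low MFN2-R94Q point in Elovl5, Elovl6 and Elovl7 is replicate 2.

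None of the 5 long-chain acyl-CoA synthetases, which activate fatty acids for all later steps, passed in any comparison. Acsl6 had the highest level, at 79.8, 76.8 and 77.9 RPKM in nTg, 77.9, 75.7 and 76.8 RPKM in MFN2-R94Q, and 79.1, 81.1, 78.7, 79.4 and 80.5 RPKM in MFN2-R94Q:MFN1. The groups of Acsl6 lay close together, with the largest log2 difference at 0.05. That was in MFN2-R94Q:MFN1 against MFN2-R94Q, where the groups did not overlap but the threshold was missed (adjusted p = 0.19). Acsl1 (9.86 to 11.6 RPKM over the 11 mice), Acsl4 (7.55 to 8.88 RPKM) and Acsl5 (10.15 to 10.98 RPKM) differed by at most 0.09 on the log2 scale in every comparison. Acsl3, an enzyme of the endoplasmic reticulum and lipid droplets, was at 54.1 to 59.0 RPKM in nTg, 55.5 to 58.5 RPKM in MFN2-R94Q and 48.9 to 55.8 RPKM in MFN2-R94Q:MFN1. Against MFN2-R94Q its log2 difference of -0.13 missed the threshold (adjusted p = 0.074), and it passed under quantile normalization (-0.17, adjusted p = 0.030).

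Of the 11 ceramide synthesis genes, none passed in MFN2-R94Q against nTg, and Degs1 alone rose in MFN2-R94Q:MFN1 against MFN2-R94Q. Degs1 (chromosome 1, 182275772 to 182282804), the desaturase that turns dihydroceramide into ceramide, was at 51.9, 53.4 and 51.3 RPKM in nTg and at 53.6, 50.3 and 51.9 RPKM in MFN2-R94Q. In MFN2-R94Q:MFN1 it was at 55.8, 56.8, 55.4, 55.7 and 56.3 RPKM, above every mouse of the other groups. The rise was 1.08-fold against MFN2-R94Q (log2 0.11, SE 0.03, adjusted p = 0.029). The call was lost in 5 of 10 alternative settings and in 5 of 11 runs with a library left out. Among these were quantile normalization (adjusted p = 0.095) and leaving out MFN2-R94Q replicate 2 (adjusted p = 0.10). Against nTg the log2 difference was 0.10 with an adjusted p of 0.11; it passed without MFN2-R94Q replicate 2 (adjusted p = 0.043), with library weights (0.027) and with the 2 groups alone (0.047). In MFN2-R94Q against nTg the log2 difference of Degs1 was -0.01 (95% interval -0.08 to 0.06).

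Cers5, a ceramide synthase that prefers palmitoyl-CoA, lay higher in the mutant mice (15.0 to 16.2 RPKM) than in nTg (13.4 to 14.4 RPKM) and in MFN2-R94Q:MFN1 (13.8 to 14.6 RPKM), with no overlap. The log2 differences of 0.13 and -0.12 missed the threshold (adjusted p = 0.054 in each). Both passed under quantile normalization (0.15, adjusted p = 0.033, and -0.14, adjusted p = 0.031). Kdsr, ketodihydrosphingosine reductase, was also higher in every mutant mouse than in the controls (5.01 to 5.92 against 4.55 to 4.83 RPKM; log2 0.17, adjusted p = 0.083). The serine palmitoyltransferase subunits Sptlc1, Sptlc2 and Sptssa, which catalyse the first and rate-limiting step, overlapped between all groups, at 10.8 to 12.2, 4.77 to 6.64 and 18.4 to 22.2 RPKM over the 11 mice. Among the remaining genes of this role none passed in any comparison. Over the 11 mice, Cers1 ranged from 10.9 to 12.3 RPKM, Cers2 from 50.7 to 55.2 RPKM, Cers4 from 10.4 to 11.6 RPKM and Cers6 from 2.76 to 3.61 RPKM. Degs2, a relative of Degs1 that also hydroxylates the sphingoid base, ranged from 1.86 to 2.26 RPKM.

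Of the 7 genes downstream of ceramide, St3gal5 fell in MFN2-R94Q and B4galt6 fell in MFN2-R94Q:MFN1 against MFN2-R94Q. St3gal5 (chromosome 6, 72097592 to 72154571), which makes GM3, the parent of most gangliosides, was at 27.6, 27.0 and 25.7 RPKM in nTg, at 24.7, 23.1 and 25.5 RPKM in MFN2-R94Q, and at 26.2, 27.1, 26.0, 27.0 and 26.1 RPKM in MFN2-R94Q:MFN1. The mutant mice lay just below all others. The fall was to 0.914 (log2 -0.13, SE 0.04, adjusted p = 0.046), and 15 of the 21 alternatives lost it. B4galt6, a lactosylceramide synthase, was at 19.0, 18.5 and 18.2 RPKM in nTg, at 20.5, 20.4 and 19.3 RPKM in MFN2-R94Q, and at 18.4, 18.5, 18.9, 18.3 and 17.8 RPKM in MFN2-R94Q:MFN1. The mutant mice lay above all others, the reverse of St3gal5, the next enzyme of the pathway. B4galt6 fell to 0.919 with MFN1 (log2 -0.12, SE 0.03, adjusted p = 0.034), a call that 9 of 21 alternatives lost. Against nTg its difference of 0.11 in MFN2-R94Q missed the threshold (adjusted p = 0.067) and passed under quantile normalization (0.14, adjusted p = 0.033). Ugcg, glucosylceramide synthase, was at 17.5 to 19.7 RPKM in all mice, and did not pass in any comparison. The same held for B4galnt1 (17.6 to 20.4 RPKM) and St8sia1 (9.31 to 10.6 RPKM), which build complex gangliosides, and for the sphingomyelin synthases Sgms1 (7.93 to 9.33 RPKM) and Sgms2 (1.26 to 1.67 RPKM).

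**Figure D4:**
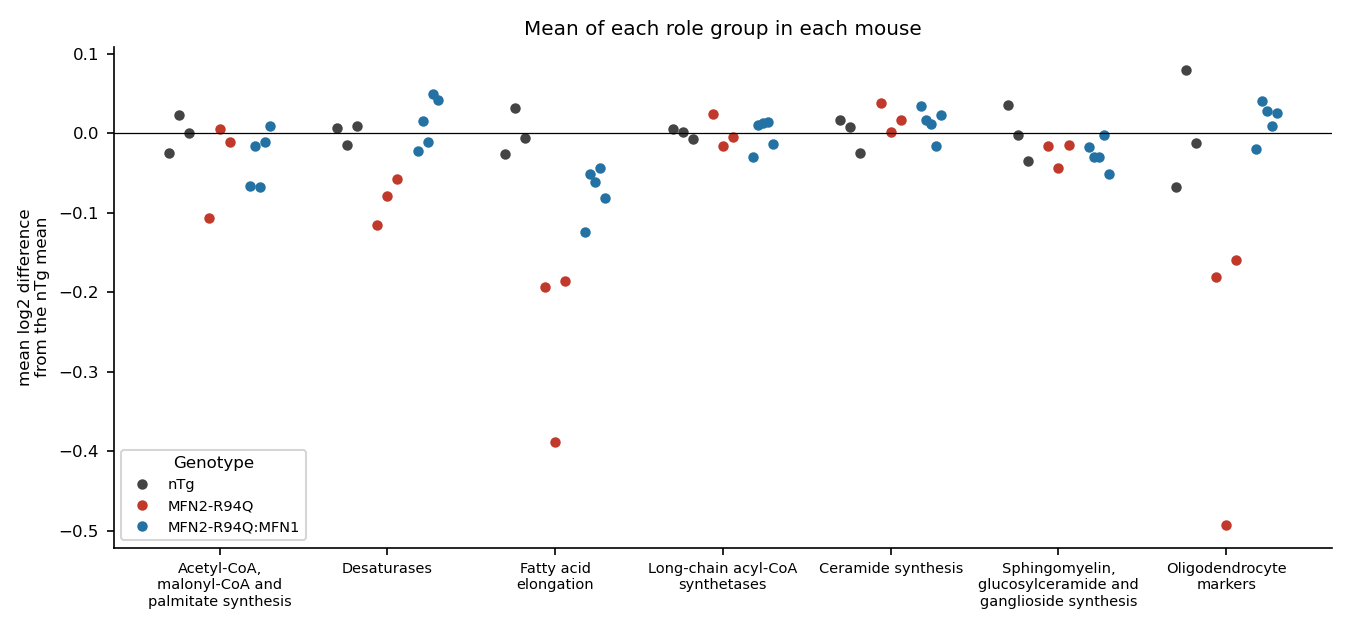
Mean log2 difference from the nTg mean (vertical axis) over the genes of each role group, and over 12 oligodendrocyte markers, in each mouse (1 point per mouse, 3 genotype colours). For the elongation genes the MFN2-R94Q mice lie at -0.19, -0.39 and -0.19, the MFN2-R94Q:MFN1 mice from -0.12 to -0.04 and the nTg mice from -0.03 to 0.03, while the acyl-CoA synthetase and ceramide groups stay within 0.04 of 0.

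The plot of role groups by mouse places oligodendrocyte markers beside the enzymes because their levels moved in the same comparisons, as did those of some other cell types (below). Of the 12 markers, 6 fell in MFN2-R94Q, among them Mag, Gjb1 and Cnp, and 1, Cldn11, rose; 8 rose and 0 fell in MFN2-R94Q:MFN1 against MFN2-R94Q (4 lower and 6 higher without MFN2-R94Q replicate 2). For these and the other marker lists, the shares over all genes were 10.4% lower and 7.5% higher in MFN2-R94Q. They were 9.55% higher and 3.33% lower in MFN2-R94Q:MFN1 against MFN2-R94Q. Summed over the 12 markers, the level was 4273 to 4658 RPKM in nTg, 3822 to 4168 RPKM in MFN2-R94Q and 4456 to 4766 RPKM in MFN2-R94Q:MFN1, and no marker was at 0. By mouse, the mean marker difference was -0.18, -0.49 and -0.16 in MFN2-R94Q, with replicate 2 lowest, as for the elongation genes. Their part in the lower enzyme levels was not tested, and in bulk tissue fewer cells of a type and less RNA per cell cannot be told apart. All 8 microglia markers rose in MFN2-R94Q:MFN1 against MFN2-R94Q, from a summed 139 to 161 RPKM to 201 to 227 RPKM, and 1 of the 8 rose and 1 fell in MFN2-R94Q against nTg. Against nTg, 6 of the 8 were higher in MFN2-R94Q:MFN1 (median log2 fold change 0.44; 2.09% of all genes were higher), so their level there was above that of the controls. Of the 8 astrocyte markers, 1 rose and 1 fell in MFN2-R94Q against nTg, and 3 rose in MFN2-R94Q:MFN1 against MFN2-R94Q; their part was not tested either. Neuron markers summed to 3105 to 3236 RPKM in nTg, 2680 to 2968 RPKM in MFN2-R94Q and 2953 to 3058 RPKM in MFN2-R94Q:MFN1, and 4 of the 10 fell and 1 rose in MFN2-R94Q, again with replicate 2 lowest (mean difference -0.13). In the same comparison 2 of 6 endothelial and mural markers, 2 of 4 ependymal markers, 2 of 4 tested Schwann cell markers and 2 of 6 oligodendrocyte precursor markers fell, while 2 precursor markers and 1 Schwann cell marker rose and 0 of 6 meningeal markers passed. In MFN2-R94Q:MFN1 against MFN2-R94Q the endothelial, precursor and meningeal lists had 1 higher marker each, the ependymal and Schwann cell lists 2 each, and the neuron list 1 higher and 1 lower. MFN2-R94Q replicate 2, which stood apart in the principal component analysis, was also the lowest mutant mouse for several of these lists. Its mean difference was -0.29 for precursor, -0.27 for endothelial and mural, -0.15 for microglia and -0.14 for Schwann cell markers. It was lowest by little for astrocyte markers (0.026 against 0.030 and 0.068), and replicate 3 was lowest for ependymal and meningeal markers. None of these markers was at 0 in all libraries of a group, and their part in the enzyme levels was not tested.

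Genes around the 40 enzymes were followed in lists of related function, which were also drawn up with those results known. Their counts stand against 10.4% of all genes lower and 7.5% higher in MFN2-R94Q, and 9.55% higher with MFN1. Galactosylceramide and sulfatide synthesis, the myelin branch of the sphingolipid pathway, changed in all 3 of its genes. Ugt8a, which adds galactose to ceramide, was at 58.8, 57.6 and 57.5 RPKM in nTg, at 38.1, 13.6 and 35.9 RPKM in MFN2-R94Q, and at 53.4, 54.0, 51.8, 51.4 and 51.4 RPKM in MFN2-R94Q:MFN1. Every mutant mouse lay far below the others, and the mice with both transgenes lay slightly below the controls. Fa2h, which hydroxylates the acyl chain of these lipids, fell to 0.686 of the nTg level (32.6 ± 6.2 against 47.2 ± 1.0 RPKM, SD, n = 3 each, adjusted p = 0.0047), and Gal3st1, the sulfotransferase that makes sulfatide, to 0.733 (10.7 ± 1.3 against 14.7 ± 1.0 RPKM, adjusted p = 0.0046). With MFN1 they rose 1.40-fold and 1.31-fold (adjusted p = 0.0060 and 0.0069). Without MFN2-R94Q replicate 2, all 3 genes still fell and still rose, with Fa2h at 0.767 and Gal3st1 at 0.776 of the nTg level, and Ugt8a was also lower in MFN2-R94Q:MFN1 than in nTg (to 0.905, adjusted p = 0.015). These folds exceed those of the 18 listed sphingolipid enzymes, whose log2 changes in MFN2-R94Q lay between -0.14 and 0.17.

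Among 14 regulators of lipid synthesis, 4 fell in MFN2-R94Q (Mid1ip1, Thrsp, Srebf2 and Nr1h2) and 0 rose, and 3 of the 14 rose with MFN1 (Mid1ip1, Thrsp and Srebf2). With MFN2-R94Q replicate 2 left out the same 4 fell, and Srebf2 no longer rose (adjusted p = 0.11). Thrsp, a lipogenic protein that pairs with Mid1ip1, was at 19.96, 19.4 and 19.4 RPKM in nTg, at 14.0, 9.65 and 14.4 RPKM in MFN2-R94Q, and at 17.7, 19.6, 16.9, 18.4 and 18.7 RPKM in MFN2-R94Q:MFN1. Mid1ip1, an activator of acetyl-CoA carboxylase, fell from 84.4 ± 4.0 to 65.6 ± 6.2 RPKM (to 0.777, adjusted p = 0.0039) and lay at 81.5 to 91.9 RPKM in MFN2-R94Q:MFN1. Srebf2, the SREBP best known for cholesterol genes, fell from 43.5 ± 0.81 to 39.0 ± 1.6 RPKM (to 0.897, adjusted p = 0.019). Srebf1, which encodes the SREBP best known for fatty acid genes, did not pass: its groups overlapped, at 24.6 to 29.5 RPKM in nTg and 26.9 to 32.2 RPKM in MFN2-R94Q. Insig1, a classical SREBP target, was 51.5 to 53.1 RPKM in nTg and 48.7 to 49.6 RPKM in MFN2-R94Q (adjusted p = 0.41).

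Of 12 other tested genes of fatty acid synthesis and elongation, 5 fell in MFN2-R94Q and 1 rose. The falls included Slc25a1, the carrier that exports citrate from mitochondria, from 39.0 ± 0.36 to 32.0 ± 1.2 RPKM (to 0.822, adjusted p = 0.0023), Acss2, acetyl-CoA synthetase (to 0.861), Me1, malic enzyme, which makes NADPH (to 0.861), and Acsbg1, an acyl-CoA synthetase (to 0.894). Hacd3, a dehydratase of the third elongation step, fell from 71.6 ± 2.4 to 64.0 ± 4.6 RPKM (to 0.894, adjusted p = 0.037). The rise was Hacd2, another dehydratase of that step, at 12.4 to 13.1 RPKM in nTg and 14.3, 18.0 and 14.4 RPKM in MFN2-R94Q (1.21-fold, adjusted p = 0.020). Slc25a1, Me1, Acsbg1 and Acss2 rose with MFN1, and 0 of the 12 passed in MFN2-R94Q:MFN1 against nTg. When MFN2-R94Q replicate 2 was left out, Hacd3 no longer fell (adjusted p = 0.10) and Acss2 no longer rose with MFN1 (adjusted p = 0.19). Of 14 other tested sphingolipid synthesis genes, 3 fell in MFN2-R94Q (St3gal1, Ormdl2 and St8sia5) and 1, St3gal1, rose with MFN1; without that library St8sia5 no longer fell (adjusted p = 0.080) and St3gal1 no longer rose (adjusted p = 0.097).

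**Figure D5:**
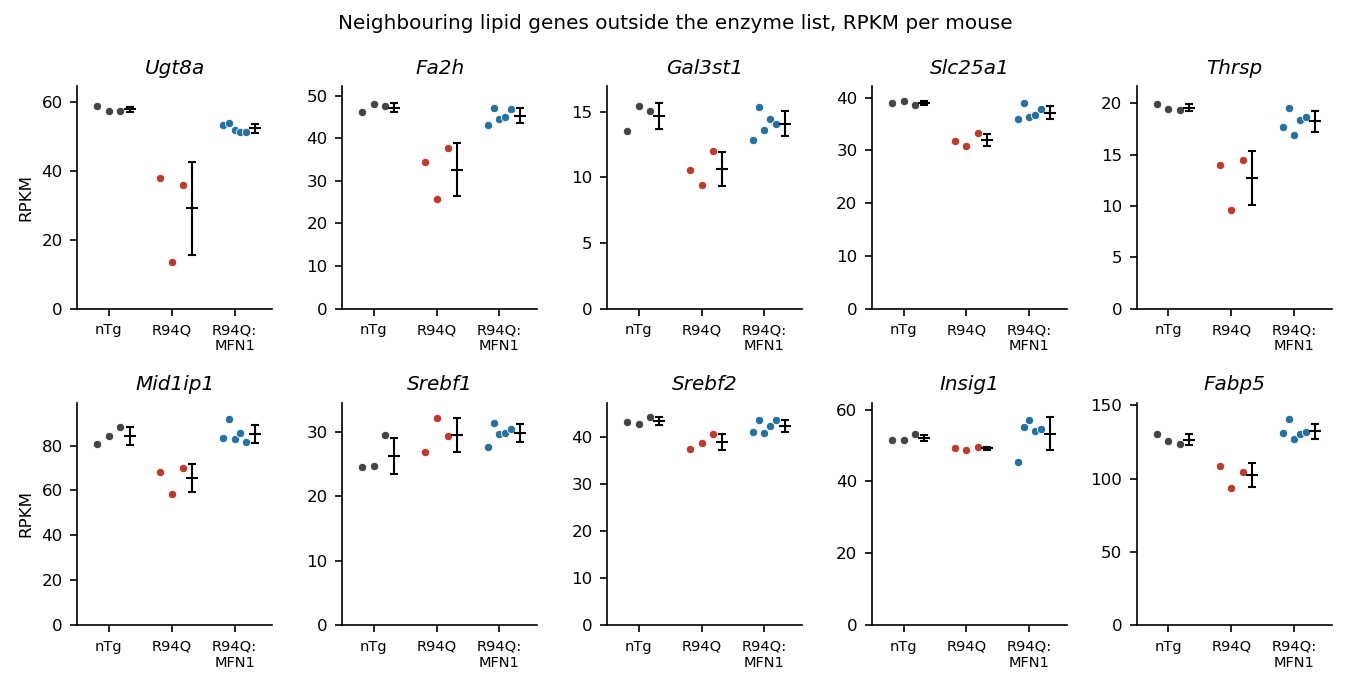
RPKM (linear axes from 0) of 10 related lipid genes outside the 40 enzymes, 1 point per mouse, with the group mean and SD as the bar at the right of each group (n = 3, 3 and 5); R94Q stands for MFN2-R94Q. Ugt8a, Fa2h, Gal3st1, Slc25a1, Thrsp, Mid1ip1, Srebf2 and Fabp5 are lowest in the 3 MFN2-R94Q mice, whereas in Srebf1 and Insig1 those mice overlap another group.

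The catabolic lists held calls in both directions. Of 23 sphingolipid breakdown genes, Hexa, Sphk2 and Smpd4 fell in MFN2-R94Q and Sgpl1, sphingosine phosphate lyase, rose (1.13-fold), shares close to those over all genes. Hexa, a lysosomal enzyme of ganglioside breakdown, fell from 22.4 ± 1.2 to 16.5 ± 1.9 RPKM (to 0.738, adjusted p = 0.0031) and rose 1.44-fold with MFN1. Of 20 fatty acid oxidation genes, 7 fell in MFN2-R94Q, those with the smallest p being Eci1, Acads, Hadha and Hadhb (to 0.773, 0.828, 0.855 and 0.881), and 5 rose with MFN1. Of 7 tested uptake and binding genes, Fabp5, Slc27a4 and Fabp3 fell and Lpl rose. Fabp5, a fatty acid binding protein, was at 131, 125 and 124 RPKM in nTg, at 109, 93.2 and 105 RPKM in MFN2-R94Q, and at 131, 141, 127, 130.4 and 132 RPKM in MFN2-R94Q:MFN1. Lpl, lipoprotein lipase, went the other way, from 1.23 ± 0.18 RPKM in nTg to 1.78 ± 0.20 in MFN2-R94Q and 2.69 ± 0.087 in MFN2-R94Q:MFN1, and passed in all 3 comparisons (adjusted p = 0.0085, 0.0026 and 2.3e-05). The median log2 change in MFN2-R94Q was 0.02 for breakdown, -0.11 for oxidation and -0.18 for uptake and binding, against -0.002 over all genes tested. Without MFN2-R94Q replicate 2 these medians were 0.02, -0.11 and -0.06, the lower calls were 2, 5 and 3, and 2 oxidation genes in place of 5 rose with MFN1.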

How the data were processed

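Libraries of lumbar spinal cord RNA from 11 mice were made with a stranded mRNA kit, per the labels' protocols. The authors deposited RPKM values per gene symbol. The submitters' processing notes name the tools Partek (7.17.0918) and TopHat, without a version, and the build mm10; the sources used here give no annotation or rule for multimapping reads. Depth was recovered from the steps between low values of 277 short RNA genes, and 94.1% to 96.7% of these values came within 0.02 of whole reads. Replicates were numbered in record order and their log2 values differed by an SD of 0.126 to 0.238. The labels do not state litters, sexes or batches, so p-values measure the spread between these mice.

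The 14347 genes reaching 0.5 RPKM in 3 or more libraries entered limma 3.58.1 (R 4.3.3), which fitted log2(RPKM + 0.5) of all groups together with a mean-dependent prior, two-sided, with Benjamini-Hochberg adjustment over all of them at 0.05, so folds understate changes of low genes. The procedure was tested on simulated data. Coordinates are GENCODE M21 (GRCm38) and promoters RefSeq (GRCm38.p6). The members, gene lists and motifs were chosen with earlier results of these data known. Named genes were every enzyme past the threshold in at least 1 comparison and the enzyme with the highest level in each role, with values in every mouse; other enzymes are given by range or count. Related lists gave at most 4 genes past the threshold per comparison, and Ugt8a, Fa2h and Gal3st1 always; Srebf1, Insig1, Hacd2, Hacd3 and the markers named were added after values were seen. Some genes of the related lists and markers are not reported here. Alternatives covered pseudocount, filter, scaling, design, weights, trend and each library left out; the correction for length and GC content (loess, span 0.5, 96.8% of genes) was chosen after seeing the data.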

Additional observations from a re-analysis of the deposited data

Results flagged for a closer look

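In groups of 5 mice the highest and lowest value of each enzyme were set against the rest of the group; 40 such groups were examined, 3 held a library far from the others (a gap above 0.71 of the range), and chance gives about 1 in 20. Elovl1 was at 16.5 RPKM in MFN2-R94Q:MFN1 replicate 1, against 18.1 to 18.6 RPKM in the other 4 mice of the group. Elovl5 was at 46.8 RPKM in the same replicate, against 48.3 to 48.8 RPKM. Elovl6 was at 12.5 RPKM in MFN2-R94Q:MFN1 replicate 3, the library with Prx at 1.15 RPKM, against 13.2 to 13.4 RPKM; the part of that signal was not tested. Groups of 3 were not examined in this way.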

How the results depend on the processing

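No paired analysis was possible because the labels give no replicate numbers that join mice of different groups. No call changed its direction under any of the 21 alternatives. Scd1, Elovl5 and Hsd17b12 were lower in MFN2-R94Q, and Fads1, Fads2, Elovl5 and Hsd17b12 higher in MFN2-R94Q:MFN1 against MFN2-R94Q, under all 21. In MFN2-R94Q against nTg the 11 lower enzymes became 5 under quantile normalization, 3 with the 2 groups alone, 7 with library weights, 6 without the trend and 6 to 11 with a library left out (6 without nTg replicate 1, nTg replicate 2 or MFN2-R94Q replicate 2). The 0 higher became 2 under quantile normalization or median ratio scaling, 1 after the length and GC correction and 0 to 3 with a library left out. The median of -0.063 was -0.044 with library weights and -0.063 to -0.037 with a library left out.

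In MFN2-R94Q:MFN1 against MFN2-R94Q the 10 higher enzymes became 5 without the filter, 6 with the 2 groups alone or without the trend, and 5 to 11 with a library left out (6 without MFN2-R94Q:MFN1 replicate 2 or 5). The 1 lower became 3 under quantile normalization, median ratio scaling or the length and GC correction, 0 with the 2 groups alone, library weights or no trend, and 0 to 1 with a library left out. The median of 0.026 was -0.0038, 0.0080 and -0.0002 under quantile normalization, median ratio scaling and the length and GC correction. In MFN2-R94Q:MFN1 against nTg, with the 2 groups alone or library weights, 1 enzyme was higher (Degs1) and 1 lower (Elovl5 and Elovl2, respectively). After the length and GC correction 2 were lower (Elovl2 and Elovl4) and the median was -0.043, against -0.014. With a library left out 0 to 1 were higher and 0 to 1 lower. Over all genes the share of calls that were higher in this comparison was 90.4%, and 77.0% after that correction. The cause was not tested, except that fits of 2 groups or fewer mice estimate the spread from fewer libraries. With 3 mice in 2 of the groups, differences of the size of the uncalled ones here are measured with SEs of 0.03 to 0.14 on the log2 scale.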
